A study of Mus musculus with 48 samples.

Results

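Translation initiation factors were examined in liver mRNA of mice in which the clock gene Bmal1 (Arntl in the gene table) had been deleted in adulthood. The members are all rows of the gene count table whose symbol begins with Eif and a digit 1 to 6, except the Eif2ak kinases, with a mean of at least 10 counts over the 48 libraries. The rule gave 54 of 23732 rows. They comprised 46 genes named as initiation factors or their partners, the 3 Eif4ebp repressors, 4 Argonaute genes that the table lists under the older symbols Eif2c1 to Eif2c4, and the pseudogene Eif4a-ps4. The label therefore holds for 46 rows by gene name only, since not all of them act in initiation. Eif4enif1, for example, carries eIF4E into the nucleus. The Argonautes, which act in microRNA silencing, are described as such. The members with the fewest counts were Eif5a2 (mean 35.9 counts) and Eif4a-ps4 (120.4), and the rows just outside the limit were Eif5al3-ps (7.38) and Eif3s6-ps2 (1). All 54 members passed the filter on low counts that the tests used.

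The KO group was made up of 24 male C57BL/6 mice aged 4 to 6 months with floxed Bmal1 alleles and EsrCre, a Cre expressed in all tissues and switched on by tamoxifen. The WT group, as the labels call it, was made up of 24 male littermates of the same age with floxed Bmal1 alleles and no Cre. Both groups took 5 mg of tamoxifen a day by gavage for 5 days, and after 7 more days spent 36 h in constant darkness before they were killed at ZT0, ZT4, ZT8, ZT12, ZT16 or ZT20 (zeitgeber hours), 4 mice of each genotype at each time. Cre was present in the KO group only, so that its own effect and the loss of Bmal1 cannot be told apart, and the loss affected all tissues, not the liver alone. Mice of ZT4 and ZT8, of ZT12 and ZT16 and of ZT20 and ZT0 came from 3 separate sets of cages (sets A, B and C), so that cage set and time of day are partly confounded. Body weight was 27.9 ± 2.52 g in KO and 30.5 ± 2.08 g in WT (SD, n = 24 each).

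Library totals lay between 33562272 and 34035644 counts. Arntl itself was counted in both genotypes, at 14.2 ± 6.57 CPM in KO and 23.5 ± 17.03 CPM in WT (SD, n = 24 each). The table gives whole genes and no exons, so this count does not check the deletion, and how complete the deletion was could not be tested. Its 24 h rhythm had an amplitude of 0.18 in KO and 2.03 in WT on the log2 scale (adjusted p of the difference 6.67e-05). Of the hepatocyte markers, 4 were measured with a summed level of 9356 to 17407 CPM in KO and 7633 to 16723 CPM in WT, and 1 of them, Apoa1, was higher in KO (log2 fold change 0.33, adjusted p = 0.0194). Among 5 endothelial markers (summed level 218 to 378 CPM in KO, 249 to 440.2 CPM in WT) Kdr was lower in KO (log2 fold change -0.18, adjusted p = 0.0107), while no marker of Kupffer cells, stellate cells, cholangiocytes or lymphocytes passed the test. The part of these markers in the results was not tested, and in bulk liver fewer cells of a type and less RNA per cell cannot be told apart. Of the KO libraries, 2 of ZT12 (mice 20 and 21) and 2 of ZT0 (mice 43 and 44) stood apart from their groups in earlier results of these data. Their mean correlations to their own group were 0.977, 0.974, 0.980 and 0.980, where the highest of the 48 libraries had 0.990. KO mice 18 (0.981) and 24 (0.982) of ZT12 came next, so on this measure the ZT0 pair hardly stood apart. Results that rest on them are given with and without them. Without them, KO mice 18 and 24 are left at ZT12 and KO mice 41 and 46 at ZT0. At the other times all mice are kept, and mainly the shared spread and the adjusted p change.

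Initiation is the stage of translation at which a ribosome is assembled on an mRNA. In brief, eIF2 brings the initiator tRNA and is recharged with GTP by eIF2B; eIF1, eIF1A and eIF5 control the choice of the start codon; eIF3 is the scaffold on the small subunit; and eIF4E, eIF4G and the helicase eIF4A, helped by eIF4B and eIF4H, bind the cap and unwind the leader. The 4E-BP proteins, products of Eif4ebp1 to Eif4ebp3, hold eIF4E away from eIF4G until the kinase mTORC1 phosphorylates them. In liver these steps follow feeding and the circadian clock, and BMAL1 with its partner CLOCK activates genes through the E-box, a DNA motif whose canonical form is CACGTG.

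Promoter sequences were available from RefSeq (build GRCm38.p6) for 42 members, as windows of 300 bases running from 250 before to 50 after a transcription start. CACGTG, which reads the same on both strands, was present in a window of 10 of these 42 members (23.8%), against 8.09% of the 27025 genes in the promoter table and 11.4% of the 10060 tested genes that matched it by symbol. It was present in 4 of 12 matched members whose rhythm differed between KO and WT (33.3%) and in 6 of 30 of the others (20.0%), a difference that was not tested. The upstream stretches around the motif (in capitals) are shown for these 4 members, since theirs are the rhythms, among the 12, that changed beside a canonical E-box. Of the 17 members whose rhythm differed, 12 had a promoter sequence. Eif4ebp1 and Eif3j were among those without one, so the motif could not be looked for there. A match is not evidence of binding.
Eif4a1, chr11:69672580-69672639, - strand: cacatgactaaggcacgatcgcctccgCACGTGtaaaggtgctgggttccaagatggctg
Eif4e, upstream copy, chr3:138527018-138527072, + strand: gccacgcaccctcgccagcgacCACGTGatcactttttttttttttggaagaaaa
Eif4e, copy nearer the start, chr3:138527177-138527236, + strand: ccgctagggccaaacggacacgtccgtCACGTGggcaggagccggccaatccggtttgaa
Eif3f, chr7:108934320-108934379, + strand: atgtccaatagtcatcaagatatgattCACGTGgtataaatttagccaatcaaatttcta
Eif1b, chr9:120492555-120492605, + strand: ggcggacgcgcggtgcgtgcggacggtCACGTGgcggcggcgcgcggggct
The motif began 189 bases upstream of the start in Eif4a1, 228 and 64 in Eif4e, 68 in Eif3f and 24 in Eif1b. Eif4b and Eif2a, whose rhythms differed most, had no match in their windows.

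Levels are given in CPM, a gene's read count scaled to the size of its library with TMM factors. To compare genes they are set against exon length, as CPM per kilobase over all 48 libraries. The members were abundant transcripts, with a median of 60.6 CPM against 13.8 CPM for the 14836 genes tested. Per kilobase the highest member was Eif5a, the factor that relieves stalled ribosomes, at 155 CPM, and the lowest was its paralog Eif5a2 at 0.211. Eif1, which keeps the small subunit scanning, stood at 124, against 8.92 for Eif1ad, an eIF1A domain gene. In the cap-binding group Eif4a1, the helicase, led with 78.0, and Eif4e3, a minor cap-binding protein, was lowest at 3.69. The eIF3 subunits spanned 70.0 for Eif3h to 8.19 for the loosely bound Eif3j. In the eIF2 group the range was 14.8 for the Y-linked gamma subunit Eif2s3y to 4.97 for Eif2d, a factor related to eIF2 in function. In eIF2B it was 18.8 for the catalytic subunit Eif2b5 to 2.14 for Eif2b3. Among the repressors Eif4ebp2 was highest at 18.8 and Eif4ebp3 lowest at 5.65, and the Argonautes lay between 5.64 (Eif2c1) and 0.922 (Eif2c4). Eif1a and Eif1ax, Eif2s3x and Eif2s3y, and Eif4a-ps4 and the Eif4a genes are near-identical copies, and how the authors counted reads shared between them is not stated, so their separate levels are uncertain.

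Averaged over the 6 times, 5 members rose in KO and none fell, against 4.94% of all genes higher and 3.92% lower. The 5 were 3 subunits of eIF3 (Eif3e, Eif3m and Eif3h), Eif1a, which helps the small subunit scan, and Eif2b3, a subunit of the eIF2B exchange factor. The differences were small: over the 51 members other than the repressors the log2 fold change ran between -0.14 (Eif2c3) and 0.20 (Eif3e). Its median over all 54 members was 0.027, with 36 above 0 (66.7%), against a median of 0.0011 and 50.4% above 0 over all genes. By edgeR, 11 members were higher and 5 lower at an unadjusted p under 0.05, against 1772 and 1602 of 14836 genes. DESeq2 also called 5 higher and 0 lower, and its share of all genes called is not given here.

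Eif3e, a subunit of the eIF3 scaffold, had the clearest rise. At ZT0, Eif3e stood at 93.1, 93.7, 106 and 113 CPM in the KO mice, against 84.0, 85.6, 87.8 and 90.1 CPM in the WT mice. At ZT4, Eif3e stood at 96.3, 100.4, 103 and 114 CPM in the KO mice, against 93.6, 97.0, 108 and 110.3 CPM in the WT mice. At ZT8, Eif3e stood at 105, 115, 115 and 123 CPM in the KO mice, against 94.8, 100.0, 108 and 109 CPM in the WT mice. The groups overlapped at ZT4 and ZT8, while at ZT0 every KO mouse was above every WT mouse. At ZT12, Eif3e stood at 110.0, 113, 142 and 152 CPM in the KO mice, against 99.7, 103, 105 and 116 CPM in the WT mice. At ZT16, Eif3e stood at 112, 115, 120.3 and 129 CPM in the KO mice, against 99.5, 102, 103 and 104 CPM in the WT mice. At ZT20, Eif3e stood at 109, 110.1, 111 and 117 CPM in the KO mice, against 85.1, 89.4, 92.6 and 96.5 CPM in the WT mice. At ZT16 and ZT20 the 4 KO mice again lay above all 4 WT mice, and at ZT12 the groups overlapped. Over all mice Eif3e averaged 113 ± 13.5 CPM in KO and 98.5 ± 8.77 CPM in WT (SD, n = 24 each), a difference of the same sign at all 6 times (log2 fold change 0.20, SE 0.033, adjusted p = 4.89e-05). The log2 fold change was 0.085 in cage set A (adjusted p = 0.343), 0.25 in set B (0.0025) and 0.26 in set C (0.0037). Without the 4 libraries that stand apart it was 0.14 (adjusted p = 0.000537), and it was called without any single mouse. Of the 6 times only ZT12 passed the test on its own (log2 fold change 0.29, SE 0.081, adjusted p = 0.0161), and there the call was lost without the 4 libraries (adjusted p = 0.694) or without KO mouse 20 or 21 or WT mouse 17 or 23 (adjusted p between 0.0612 and 0.149). Without those 4 libraries, Eif3e was called higher at ZT16 (log2 fold change 0.22, adjusted p = 0.0209) and at ZT20 (0.31, adjusted p = 0.00632). None of the 4 is from these times. With all libraries the log2 fold changes were 0.22 (adjusted p = 0.0970) and 0.30 (0.0543).

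Eif3m, a further subunit of eIF3, averaged 80.2 ± 9.09 CPM in KO and 73.6 ± 6.91 CPM in WT (SD, n = 24 each). It was higher at all 6 times (log2 fold change 0.13, SE 0.031, adjusted p = 0.00774), and within cage sets it was called in set C alone (log2 fold change 0.22, adjusted p = 0.0129). Eif3h averaged 118 ± 14.2 CPM in KO and 108 ± 8.86 CPM in WT (SD, n = 24 each) and was higher at 5 times (log2 fold change 0.12, SE 0.036, adjusted p = 0.0241). Within cage sets Eif3h was called in none (log2 fold change 0.026 in set A, 0.15 in set B and 0.19 in set C, with adjusted p of 0.833, 0.108 and 0.0630), and its call was lost with body weight as a covariate (adjusted p = 0.0567). Of the 13 eIF3 subunits 3 rose, 10 did not pass the test, and 10 had a log2 fold change above 0, between -0.073 for the large core subunit Eif3a and 0.20 for Eif3e. Eif1a averaged 101 ± 16.1 CPM in KO and 89.6 ± 16.3 CPM in WT (SD, n = 24 each) (log2 fold change 0.17, SE 0.055, adjusted p = 0.0398), and Eif2b3 averaged 14.8 ± 2.68 CPM in KO and 13.1 ± 3.09 CPM in WT (SD, n = 24 each) (log2 fold change 0.19, SE 0.062, adjusted p = 0.0495). The log2 fold change of Eif1a was 0.35 in cage set A and -0.018 in set C, and that of Eif2b3 was 0.38 in set A and -0.12 in set B. Eif1a was called in 23 of 48 fits that each left out 1 mouse and Eif2b3 in 15 of 48. Without the 4 libraries that stand apart, Eif3e was the only one of the 5 still called higher, and 2 members were called lower, Eif1 (log2 fold change -0.14, adjusted p = 0.00991) and Eif4ebp3 (-0.67, adjusted p = 0.028). For both of these genes the 4 left out were the highest KO mice of ZT0 and ZT12.

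**Figure D1:**
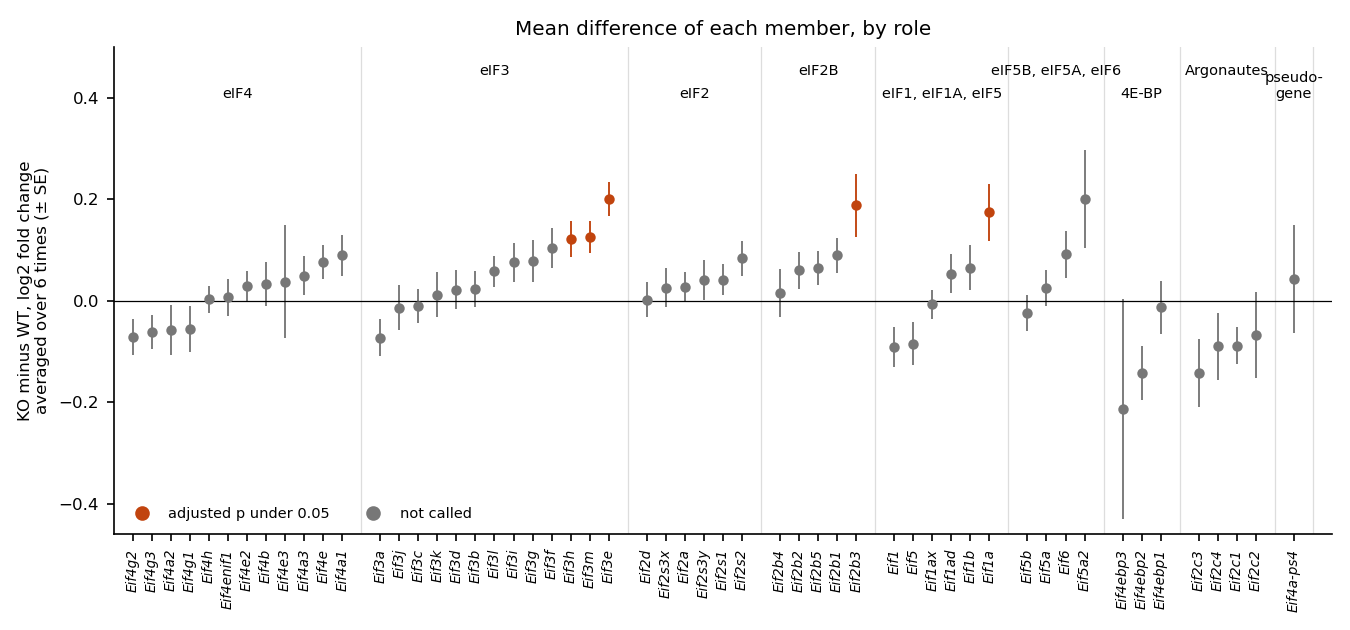
KO minus WT for each of the 54 members, as the log2 fold change averaged over 6 times (vertical axis, bars SE), grouped by role; 24 mice per genotype. The 5 called members, marked in red, all lie above 0, with Eif3e highest at 0.20, and Eif4ebp3 has the widest bar.

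Fitted with a 24 h cosine, 42 of 54 members were rhythmic in WT (77.8%, against 48.1% of all genes) and 1 in KO (1.85%, against 0.984%). The rhythm itself, by a test of amplitude and peak hour together, differed between KO and WT in 17 members (31.5%, against 22.8%). The genotype by time interaction, which assumes no wave shape, was called in 14 (25.9%, against 20.7%). All 17 were rhythmic in WT, none was called rhythmic in KO, and the fitted amplitude was lower in KO in all 17. They were picked by the difference test, and few genes of any kind were called rhythmic in KO (0.984%). These traits therefore follow in large part from the choice. Over all 54 members the median amplitude (mean to peak, log2 scale) was 0.11 in KO and 0.19 in WT, and it was lower in KO for 43 members (79.6%). Over all genes these medians were 0.11 and 0.18, with 71.9% lower in KO. One call in KO does not show that the other members were flat there: 30 of 54 had an unadjusted p under 0.05 for a rhythm in KO (55.6%), against 21.6% of all genes, and DESeq2 called 3. An edgeR test for any difference between the 6 times in KO called 0 members, against 0.91% of all genes. At an unadjusted p under 0.05 this test gave 26 of 54 members (48.1%), against 21.1% of all genes.

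Within cage set A (ZT4 and ZT8), 5 members were higher in KO (Eif4a1, Eif4e, Eif2b3, Eif1a and Eif1b, against 7.4% of all genes) and 6 lower (Eif4b, Eif2a, Eif2d, Eif4ebp1, Eif1 and Eif5, against 7.14%). In set B (ZT12 and ZT16), 2 were higher (Eif4b and Eif3e, against 6.01%) and 2 lower (Eif2c3 and Eif4ebp3, against 4.81%). In set C (ZT20 and ZT0), edgeR called 5 higher (Eif3e, Eif3f, Eif3l, Eif3m and Eif6, against 3.29%) and 0 lower (against 2.18%). At an unadjusted p under 0.05 in set C, 4 were lower, against 1458 of 14836 genes. When cage set was added as a term for each genotype, 6 members remained rhythmic in WT (Eif4e2, Eif4e, Eif4ebp1, Eif1a, Eif4b and Eif4ebp3), 4 differed between KO and WT (Eif1b, Eif2c1, Eif1a and Eif4b) and 0 were rhythmic in KO. That fit leaves only the step between the 2 times of each set, so a rhythm and a difference between cage sets cannot be told apart for the other members.

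At single times few members were called. Eif5 fell at ZT4 (1 of 54, against 1.89% of all genes lower and 1.9% higher). At ZT8 Eif1a and Eif4e rose (against 3.78%) and Eif4b fell (against 4.08%). At ZT12 Eif3e rose (against 6.59%) and Eif2c2, Eif2c3 and Eif4ebp2 fell (against 5.12%). At ZT16 Eif4b and Eif2c1 rose (against 2.6%) and Eif4ebp3 fell (against 2.77%). At ZT0 edgeR called 0 members (against 1.06% of all genes higher and 0.613% lower), and DESeq2 called 2 higher. At an unadjusted p under 0.05 by edgeR, 14 members were higher and 4 lower there, against 1372 and 1165 of 14836 genes. At ZT20 edgeR called 0 (against 0.647% higher and 0.404% lower), and DESeq2 called 3 higher. At an unadjusted p under 0.05 by edgeR, 7 were higher and 1 lower, against 974 and 984 of 14836 genes. The shares of all genes called by DESeq2 are not given here. The ZT0 count turned on KO mouse 41: without it 8 members were higher (Eif2d, Eif3m, Eif6, Eif2b3, Eif2b1, Eif3l, Eif5a and Eif4ebp3) and 1, Eif2c1, was lower. Without KO mouse 44, 9 members were called rhythmic in KO. The shares of all genes called in these fits without 1 mouse are not given here. The counts therefore cannot be read as particular to the members.

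**Figure D2:**
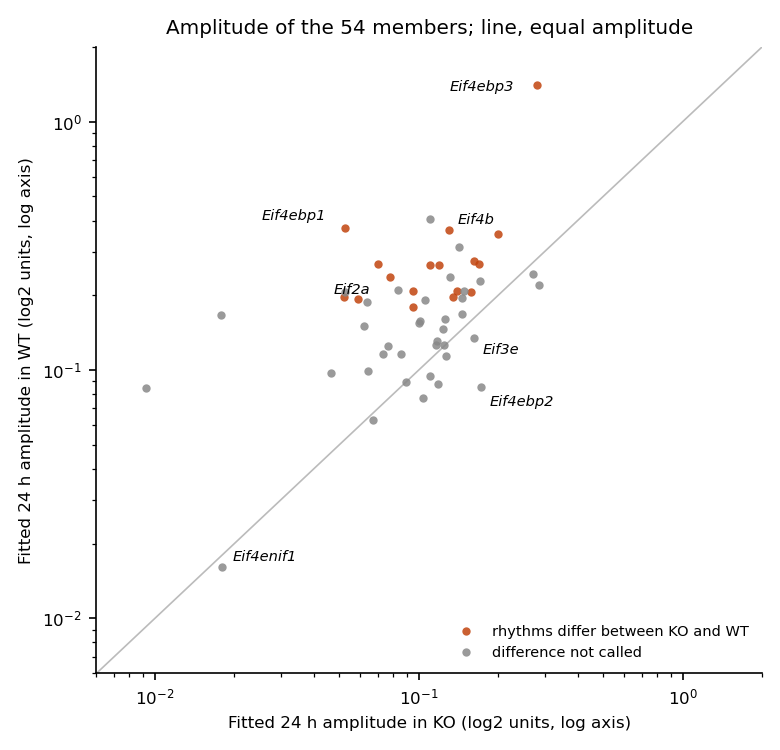
Fitted 24 h amplitude in KO (horizontal axis) and WT (vertical axis), both in log2 units on log axes, 1 point per member, with a line of equal amplitude. All 17 members whose rhythm differed, in red, lie above the line, with Eif4ebp3 far above the rest at 0.28 in KO and 1.40 in WT. The 17 were picked by a test on the same fits.

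Eif4b (chr15:101904204-101927603, mm9), a helper of the eIF4A helicase, had the smallest p of all members for the rhythm difference. At ZT0, Eif4b stood at 237, 240.3, 266 and 273 CPM in the KO mice, against 251, 282, 282 and 331 CPM in the WT mice. At ZT4, Eif4b stood at 243, 249, 281 and 295 CPM in the KO mice, against 291, 321, 322 and 392 CPM in the WT mice. At ZT8, Eif4b stood at 264, 277, 284 and 310.1 CPM in the KO mice, against 357, 360.0, 372 and 438 CPM in the WT mice. By ZT8 every KO mouse was below every WT mouse. At ZT12, Eif4b stood at 252, 268, 276 and 358 CPM in the KO mice, against 204, 237, 265 and 286 CPM in the WT mice. At ZT16, Eif4b stood at 286, 291, 296 and 335 CPM in the KO mice, against 187, 198, 219 and 219 CPM in the WT mice. At ZT20, Eif4b stood at 331, 332, 333 and 339 CPM in the KO mice, against 230.1, 259, 276 and 288 CPM in the WT mice. At ZT16 and ZT20 the order was turned round, with every KO mouse above every WT mouse. ZT8 passed the test on its own (log2 fold change -0.43, SE 0.10, adjusted p = 0.00771), as did ZT16 (log2 fold change 0.55, SE 0.10, adjusted p = 0.00147). Without the 4 libraries that stand apart ZT4 did too (-0.31, adjusted p = 0.0460). None of the 4 is from ZT4, where the log2 fold change with all libraries was also -0.31 (adjusted p = 0.0782). The WT rhythm had an amplitude of 0.37 (SE 0.051) and a peak at ZT5.01 (SE 0.534 h), a 1.66-fold range; the KO fit had an amplitude of 0.13 (SE 0.051) and did not pass (adjusted p = 0.226). The rhythm difference (adjusted p = 7.61e-06) held with cage set as a term (adjusted p = 0.0203), under the 8 other settings tried and without any single mouse. The call at ZT8 was lost without WT mouse 16 (adjusted p = 0.0573). The log2 fold change was -0.37 in cage set A (adjusted p = 6.07e-04), 0.38 in set B (4.79e-04) and 0.084 in set C (0.558), and the average over times did not pass (log2 fold change 0.033, SE 0.043, adjusted p = 0.694).

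Eif2a (chr3:58329743-58361423, mm9) encodes eIF2A, a factor that can deliver initiator tRNA without eIF2 and is distinct from the eIF2 alpha subunit (Eif2s1). At ZT4, Eif2a stood at 45.3, 45.6, 46.3 and 52.4 CPM in the KO mice, against 49.4, 52.8, 56.7 and 62.2 CPM in the WT mice. At ZT8, Eif2a stood at 47.1, 50.3, 51.9 and 57.5 CPM in the KO mice, against 52.2, 56.4, 61.1 and 63.2 CPM in the WT mice. At ZT16, Eif2a stood at 49.5, 51.5, 51.5 and 54.7 CPM in the KO mice, against 42.7, 43.5, 44.2 and 46.6 CPM in the WT mice. At ZT16 every KO mouse exceeded every WT mouse, and the groups overlapped at ZT4 and ZT8. At ZT20, Eif2a stood at 47.7, 49.3, 50.4 and 52.8 CPM in the KO mice, against 41.6, 41.6, 41.8 and 43.3 CPM in the WT mice. At ZT0, Eif2a stood at 44.1, 46.6, 47.5 and 48.5 CPM in the KO mice, against 43.1, 44.7, 47.6 and 47.7 CPM in the WT mice. At ZT12, Eif2a stood at 45.5, 47.9, 54.3 and 57.2 CPM in the KO mice, against 47.1, 47.8, 48.9 and 53.9 CPM in the WT mice. The KO mice lay above the WT mice at ZT20 and among them at ZT0 and ZT12. The amplitude was 0.078 (SE 0.029) in KO and 0.24 (SE 0.029) in WT, where the peak fell at ZT7.00 (SE 0.462 h), and the rhythms differed (adjusted p = 3.80e-05). No single time passed the test for Eif2a, the closest being ZT16 (log2 fold change 0.23, SE 0.072, adjusted p = 0.0530). Without the 4 libraries that stand apart, Eif2a was called lower at ZT4 (log2 fold change -0.22, adjusted p = 0.0401) and higher at ZT16 (0.23, adjusted p = 0.0289) and ZT20 (0.25, adjusted p = 0.0373). None of the 4 is from these times. With all libraries the log2 fold changes were -0.22, 0.23 and 0.25 (adjusted p = 0.0677, 0.0530 and 0.0789). With cage set as a term the rhythm difference was lost (adjusted p = 0.136). Serp1, which overlaps Eif2a in the table and was itself rhythmic in WT (amplitude 0.49, peak ZT15.1), peaked later than Eif2a. The library kit records no strand, so reads in the shared stretch cannot be assigned.

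**Figure D3:**
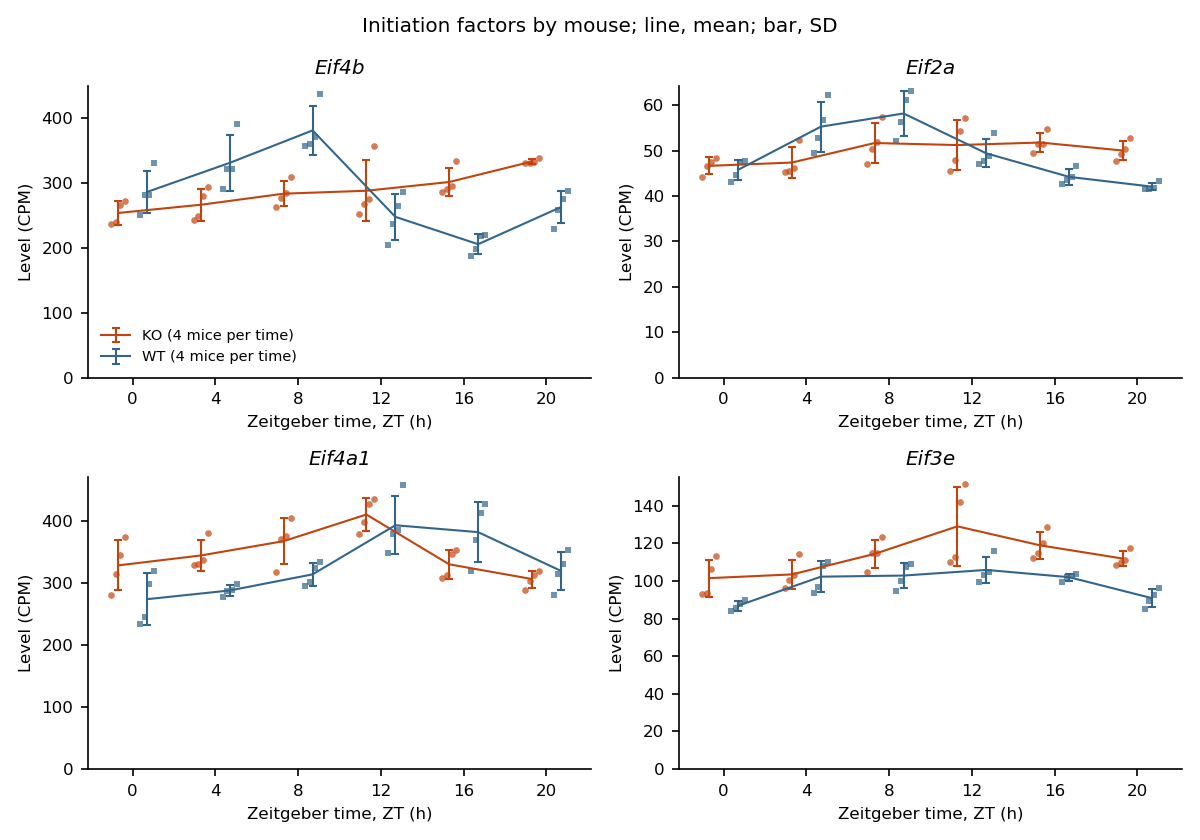
Levels in CPM (vertical axes, from 0) of Eif4b, Eif2a, Eif4a1 and Eif3e at 6 times (horizontal axes), 1 point per mouse, KO to the left of WT, with means joined by lines and bars of 1 SD (4 mice per point). Eif4b and Eif2a are below WT at ZT8 and above it at ZT16 and ZT20, and Eif3e is above WT at each time by its mean.

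Of 12 genes in the cap-binding group 3 differed in rhythm, Eif4b, Eif4a1 and Eif4e, close to the 22.8% of all genes. Whether any role departs from the share of all genes was not tested. Eif4a1, the helicase, peaked in WT at ZT13.8 (SE 0.579 h) with an amplitude of 0.27 (SE 0.041), against a fitted 0.17 (SE 0.041) in KO with a peak at ZT9.78 (SE 0.914 h) (adjusted p of the difference 0.00673). The lowest, median and highest levels of Eif4a1 over 24 mice were 279.9, 341 and 436 CPM in KO and 233, 319 and 459 CPM in WT. Over ZT4 and ZT8 the level was higher in KO (log2 fold change 0.24 in set A, adjusted p = 0.0150), and no single time was called. Eif4e, the cap-binding protein, was rhythmic in WT with a peak at ZT15.5 (SE 0.669 h) and an amplitude of 0.21 (SE 0.037), against 0.10 (SE 0.037) in KO (adjusted p of the difference 0.0180). At ZT8, Eif4e stood at 60.0, 61.5, 62.4 and 67.3 CPM in the KO mice, against 46.2, 52.6, 53.4 and 56.4 CPM in the WT mice. Every KO mouse was above every WT mouse at that time (log2 fold change 0.27, SE 0.084, adjusted p = 0.0395), but the call was lost without KO mouse 9, 14 or 15 or WT mouse 12, 13 or 16 (adjusted p between 0.0691 and 0.160). Of the 12 genes 8 were rhythmic in WT, against 48.1% of all genes. These 8 also took in the scaffold Eif4g1 and the helicase paralogs Eif4a2 and Eif4a3. Eif4enif1, which carries eIF4E into the nucleus, had the smallest WT amplitude of the members at 0.016.

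Of 6 start codon factors 4 differed in rhythm, Eif5, Eif1ad, Eif1b and Eif1a, against 22.8% of all genes. Eif5, which makes eIF2 hydrolyse its GTP, peaked in WT at ZT2.53 (SE 0.895 h) and had an amplitude of 0.059 (SE 0.045) in KO and 0.19 (SE 0.045) in WT (adjusted p of the difference 0.0121). At ZT4, Eif5 stood at 244, 277, 317 and 319.6 CPM in the KO mice, against 311, 357, 403 and 406 CPM in the WT mice. It was called lower at this time (log2 fold change -0.35, SE 0.10, adjusted p = 0.0460), the groups overlapped, and the call stood in 19 of 48 fits without 1 mouse. Eif1a had the largest difference at a single time among the called members other than the repressors. At ZT8, Eif1a stood at 85.2, 101, 101 and 124 CPM in the KO mice, against 60.0, 63.6, 64.4 and 73.3 CPM in the WT mice. All 4 KO mice lay above all 4 WT mice (log2 fold change 0.66, SE 0.14, adjusted p = 0.00167), and the call stood under the 7 other settings tried and without any single mouse. At ZT12, Eif1a stood at 98.0, 113, 134 and 136 CPM in the KO mice, against 79.4, 88.9, 94.1 and 109.9 CPM in the WT mice. There the groups overlapped (adjusted p = 0.0676). Eif1a peaked in WT at ZT19.6 (SE 1.21 h) (amplitude 0.21 (SE 0.065)) and its KO fit did not pass; the difference, adjusted p = 0.0287, also held with cage set as a term (0.0333). Eif1b, a paralog of Eif1, had an amplitude of 0.16 (SE 0.051) in KO and 0.27 (SE 0.05) in WT with a peak at ZT14.9 (SE 0.699 h) (adjusted p of the difference 0.0271). Eif1 was called by the interaction (adjusted p = 0.0187) and not by the rhythm difference.

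Among the eIF3 subunits a WT rhythm was called in 12 of 13, against 48.1% of all genes. A difference between genotypes was called in 2, Eif3j and Eif3f, against 22.8% of all genes. Of the 12, 10 peaked between ZT9 and ZT15 in WT, from ZT10.1 for Eif3k to ZT14.7 for Eif3b, and the exceptions were Eif3f at ZT8.93 and Eif3a at ZT21.7. Fitted in KO, 11 of 13 peaked in the same window, with a median amplitude of 0.12 against 0.16 in WT. In KO 11 of 13 had an unadjusted p under 0.05, against 21.6% of all genes. The amplitude of Eif3e was 0.16 (SE 0.033) in KO and 0.14 (SE 0.033) in WT. Its peaks were at ZT13.2 (SE 0.771 h) in KO and ZT10.4 (SE 0.936 h) in WT. Eif3e alone, 1 of 13, was called rhythmic in KO after adjustment over all genes (adjusted p in KO 0.0336). This call was lost in 9 of 48 fits without 1 mouse and without the 4 libraries that stand apart (adjusted p = 0.0821). Whether eIF3 differs from the other groups in how many rhythms were lost was not tested. Eif3j, which steers mRNA entry, had an amplitude of 0.11 (SE 0.042) in KO and 0.27 (SE 0.042) in WT (adjusted p of the difference 0.00879), and Eif3f had 0.13 (SE 0.041) in KO and 0.20 (SE 0.041) in WT (0.0422).

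In the eIF2 group 4 of 6 genes were rhythmic in WT (against 48.1% of all genes) and 3 differed, Eif2a, Eif2d and Eif2s1 (against 22.8%). These shares of all genes are also the background for eIF2B and the last group. Eif2d had an amplitude of 0.052 (SE 0.035) in KO and 0.20 (SE 0.035) in WT, where it peaked at ZT8.79 (SE 0.680 h) (adjusted p of the difference 0.0106). Eif2s1, the subunit that stress kinases phosphorylate, peaked in WT at ZT14.5 (SE 0.694 h) (amplitude 0.10 (SE 0.033) in KO and 0.18 (SE 0.033) in WT, adjusted p of the difference 0.0418). In eIF2B 4 of 5 subunits were rhythmic in WT, with peaks from ZT12.2 (Eif2b1) to ZT16.3 (Eif2b4), and Eif2b3 differed (amplitude 0.20 (SE 0.061) in KO and 0.35 (SE 0.062) in WT, adjusted p = 0.0260). The lowest, median and highest levels of Eif2b3 over 24 mice were 10.9, 14.5 and 20.5 CPM in KO and 8.65, 13.0 and 21.3 CPM in WT. All 4 genes of the last group, Eif5b, which joins the subunits, Eif5a, Eif5a2 and Eif6, which keeps the large subunit apart, were rhythmic in WT, and Eif6 differed (amplitude 0.07 (SE 0.046) in KO and 0.27 (SE 0.046) in WT, adjusted p = 0.0419).

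Over the roles, WT peaks gathered late in the subjective day and early in the subjective night. Of the 40 members rhythmic in WT other than the repressors, 24 peaked between ZT9 and ZT15 (60%), against 25.4% of the 7141 genes rhythmic in WT. Between ZT3 and ZT9 5 peaked, between ZT15 and ZT21 7, and between ZT21 and ZT3 4. Fitted in KO, where 1 of the 40 was called rhythmic, 28 of the same 40 had a peak between ZT9 and ZT15 (70%), against 30.7% of the 7141 genes. The amplitudes of the 40 in WT ran from 0.098 (Eif4h) to 0.41 (Eif2c4), which is a peak 1.14 to 1.76 times the trough. ZT12 lies in this window, and 2 of the 4 libraries that stand apart are KO libraries of ZT12.

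**Figure D4:**
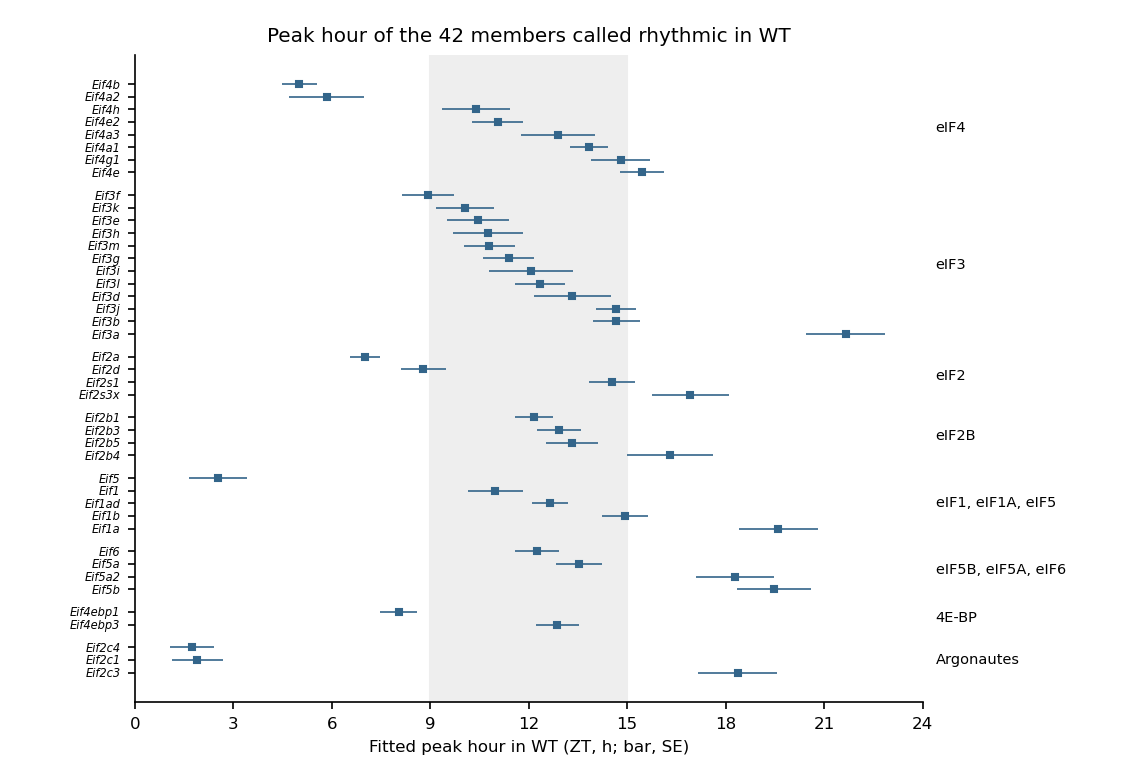
Fitted peak hour in WT (horizontal axis, zeitgeber hours, bars SE) of the 42 members called rhythmic in WT, grouped by role, with ZT9 to ZT15 shaded. Most eIF3 and eIF2B subunits fall in the shaded window, and Eif4b, Eif4a2, Eif2a and Eif5 peak before it.

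The Argonautes Eif2c1 to Eif2c4 bind microRNAs and are not initiation factors. Eif2c1 differed in its rhythm (adjusted p of the difference 0.0215), also with cage set as a term (0.00518). Its amplitude was 0.14 (SE 0.042) in KO and 0.21 (SE 0.042) in WT. The fitted peaks were at ZT21.1 in KO and ZT1.90 (SE 0.771 h) in WT. The rhythm difference was lost with total counts (adjusted p = 0.0854) and without WT mouse 29 of ZT16 (0.0522). At ZT16, Eif2c1 stood at 46.3, 46.6, 49.0 and 50.1 CPM in the KO mice, against 36.0, 36.1, 38.5 and 39.2 CPM in the WT mice. The groups did not overlap (log2 fold change 0.36, SE 0.089, adjusted p = 0.0127), and the call was lost without KO mouse 25 (0.0531). At ZT0, Eif2c1 stood at 40.4, 44.1, 44.9 and 49.8 CPM in the KO mice, against 52.2, 53.96, 54.1 and 56.7 CPM in the WT mice. There the order was the opposite, with every KO mouse below every WT mouse, but the test was not passed (adjusted p = 0.0914). Eif2c2 and Eif2c3 were called lower at ZT12 (log2 fold change -0.62, SE 0.21, adjusted p = 0.0433 for Eif2c2; log2 fold change -0.52, SE 0.16, adjusted p = 0.0328 for Eif2c3), and both calls were lost without the 4 libraries that stand apart (adjusted p = 0.473 for Eif2c2 and 0.435 for Eif2c3). The call of Eif2c2 was also lost without KO mouse 20 or 21 or WT mouse 17, 19 or 23 (adjusted p between 0.0558 and 0.131), and that of Eif2c3 without KO mouse 20 or 21 or WT mouse 17 or 23 (adjusted p between 0.0577 and 0.187).

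The 3 Eif4ebp repressors differed in which rhythm tests they passed. Averaged over times none was called: Eif4ebp1 had 34.9 ± 5.16 CPM in KO and 35.9 ± 8.14 CPM in WT (SD, n = 24 each), Eif4ebp2 104 ± 15.8 CPM in KO and 114 ± 11.4 CPM in WT (SD, n = 24 each) and Eif4ebp3 3.62 ± 2.75 CPM in KO and 4.78 ± 4.05 CPM in WT (SD, n = 24 each). Their log2 fold changes were -0.013, -0.14 and -0.21, with adjusted p of 0.915, 0.0923 and 0.601. Eif4ebp1 and Eif4ebp3 were rhythmic in WT and not called in KO, and both rhythms differed; Eif4ebp2 was called in neither genotype.

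Eif4ebp1 encodes 4E-BP1, the best studied of the repressors, and lies in the table at chr8:28370799-28386128 (mm9). At ZT0, Eif4ebp1 stood at 26.4, 33.4, 37.8 and 39.7 CPM in the KO mice, against 27.6, 28.2, 29.6 and 30.7 CPM in the WT mice. At ZT4, Eif4ebp1 stood at 29.9, 32.5, 34.4 and 36.8 CPM in the KO mice, against 34.7, 37.3, 39.05 and 44.7 CPM in the WT mice. At ZT8, Eif4ebp1 stood at 32.3, 33.9, 39.6 and 41.1 CPM in the KO mice, against 45.4, 45.9, 50.2 and 50.2 CPM in the WT mice. At ZT8 every KO mouse was below every WT mouse, and at ZT0 and ZT4 the groups overlapped. At ZT12, Eif4ebp1 stood at 29.2, 32.4, 35.3 and 51.6 CPM in the KO mice, against 34.0, 40.8, 42.7 and 47.5 CPM in the WT mice. At ZT16, Eif4ebp1 stood at 30.1, 32.7, 34.7 and 34.8 CPM in the KO mice, against 24.42, 27.8, 28.7 and 29.0 CPM in the WT mice. At ZT20, Eif4ebp1 stood at 29.4, 33.9, 38 and 38.9 CPM in the KO mice, against 26.4, 29.8, 33.3 and 34.6 CPM in the WT mice. By ZT16 the order was turned round, with every KO mouse above every WT mouse. The WT level thus ran through a wave with a peak at ZT8.04 (SE 0.558 h) and an amplitude of 0.37 (SE 0.054), a 1.67-fold range, and the KO amplitude was 0.053 (SE 0.055) (adjusted p of the difference 0.00485). No single time passed, ZT8 being closest (log2 fold change -0.38, SE 0.13, adjusted p = 0.0534). Without the 4 libraries that stand apart, ZT8 was called (log2 fold change -0.38, adjusted p = 0.0102), though none of the 4 is from ZT8. ZT12 was called too (adjusted p = 0.0364), but only KO mice 18 and 24 were left there (32.4 and 29.2 CPM). The KO mice left out of ZT12 had 35.3 and 51.6 CPM. The WT rhythm held with cage set as a term (adjusted p = 0.00197), while the difference did not (0.302). Within cage sets the log2 fold change was -0.30 in set A (adjusted p = 0.0184), 0.057 in set B (0.753) and 0.21 in set C (0.171).

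Eif4ebp3, the least abundant repressor, had the largest amplitude of all members. At ZT0, Eif4ebp3 stood at 0.967, 1.69, 6.00 and 9.56 CPM in the KO mice, against 0.935, 1.32, 1.72 and 2.398 CPM in the WT mice. At ZT4, Eif4ebp3 stood at 1.36, 1.44, 2.28 and 2.65 CPM in the KO mice, against 0.887, 1.39, 1.88 and 2.90 CPM in the WT mice. At ZT8, Eif4ebp3 stood at 3.02, 3.27, 3.78 and 10.0 CPM in the KO mice, against 4.25, 4.55, 5.31 and 5.87 CPM in the WT mice. The groups overlapped at these times. At ZT12, Eif4ebp3 stood at 2.63, 2.78, 7.51 and 8.29 CPM in the KO mice, against 6.23, 9.03, 9.62 and 18.8 CPM in the WT mice. At ZT16, Eif4ebp3 stood at 0.971, 1.16, 1.52 and 2.44 CPM in the KO mice, against 3.60, 4.74, 7.52 and 9.65 CPM in the WT mice. At ZT20, Eif4ebp3 stood at 1.32, 3.06, 3.36 and 5.85 CPM in the KO mice, against 1.39, 1.79, 4.02 and 4.84 CPM in the WT mice. At ZT16 every KO mouse was below every WT mouse (log2 fold change -2.06, SE 0.55, adjusted p = 0.0195), and at ZT12 the mean was lower in KO without passing the test (log2 fold change -1.05, SE 0.50, adjusted p = 0.173). The amplitude was 0.28 (SE 0.23) in KO and 1.40 (SE 0.24) in WT, where the peak at ZT12.9 (SE 0.652 h) was 6.99 times the trough, and the rhythms differed (adjusted p = 0.00833). The call at ZT16 was lost without KO mouse 25, 26 or 31 or WT mouse 29 (adjusted p between 0.0549 and 0.0817), while the log2 fold change stayed between -2.06 and -1.79. KO mice 43 and 44 of ZT0 and 20 and 21 of ZT12 are the libraries that stand apart, and without them ZT12 was called (log2 fold change -2.02, adjusted p = 0.0257). That call sets KO mice 18 and 24 alone (2.63 and 2.78 CPM) against the WT mice. The KO mice left out were the higher ones (8.29 and 7.51 CPM). Ankhd1, which overlaps Eif4ebp3 in the table, had 48.9 CPM in KO and 51.3 CPM in WT and no called rhythm (adjusted p in WT = 0.0718).

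**Figure D5:**
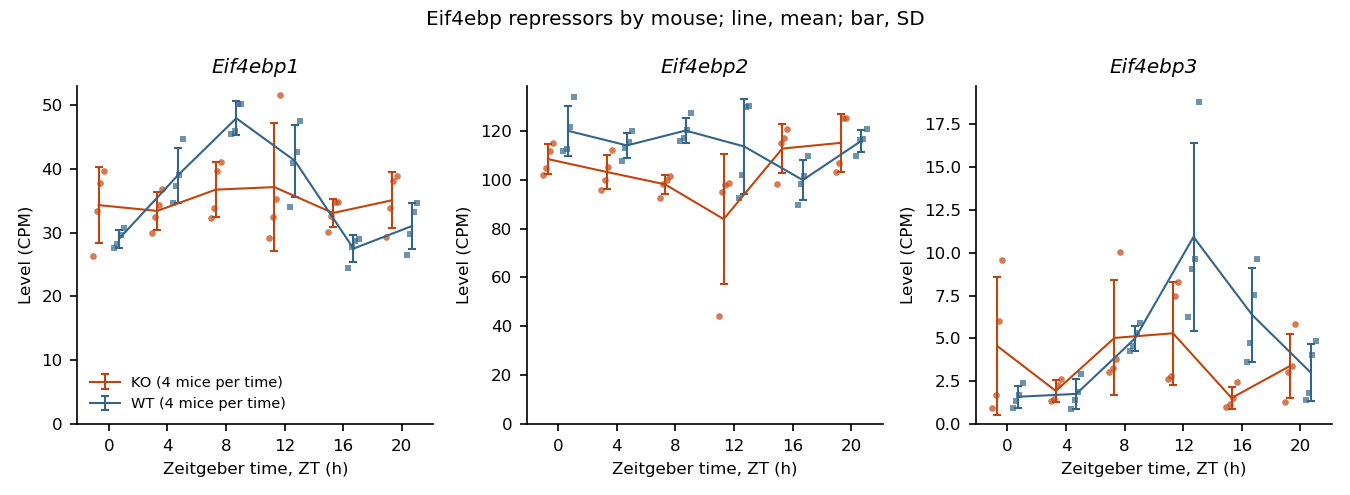
Levels in CPM (vertical axes, from 0) of Eif4ebp1, Eif4ebp2 and Eif4ebp3 at 6 times (horizontal axes), 1 point per mouse, KO to the left of WT, with means joined by lines and bars of 1 SD (4 mice per point). Eif4ebp1 and Eif4ebp3 form a wave in WT that is flatter in KO, and the low Eif4ebp2 point at ZT12 is KO mouse 21, at 44.1 CPM.

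Eif4ebp2 was called lower in KO at ZT12 (log2 fold change -0.44, SE 0.13, adjusted p = 0.0250). At ZT12, Eif4ebp2 stood at 44.1, 95.1, 97.6 and 98.7 CPM in the KO mice, against 92.4, 102, 129.6 and 130.3 CPM in the WT mice. One KO mouse, number 21, was far below the other 3, and without it the log2 fold change at ZT12 was -0.24. Over all mice left out in turn, the call at ZT12 was lost without KO mouse 21 or WT mouse 17 or 23 (adjusted p between 0.0927 and 0.111). Leaving KO mouse 21 out also brought the average over times past the threshold (log2 fold change -0.11, adjusted p = 0.0443) and the rhythm difference too (adjusted p = 0.0221), so that these Eif4ebp2 results turn on single libraries. At ZT8, Eif4ebp2 stood at 92.7, 98.3, 99.8 and 101 CPM in the KO mice, against 116, 117, 120.1 and 127 CPM in the WT mice. At ZT8 every KO mouse was below every WT mouse without passing the test (log2 fold change -0.29, SE 0.13, adjusted p = 0.187), and without the 4 libraries that stand apart, which alters the shared spread, it was called (adjusted p = 0.0217).

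Eif4ebp1 and Eif4ebp3 were also compared across mice, after the mean of each group of 4 had been taken from the log2 CPM, which removes time and cage set. In all 24 KO mice the deviations were correlated (Pearson r = 0.617, permutation p = 0.00118, adjusted over the 2 genotypes 0.00236; Spearman rho = 0.595, permutation p = 0.00258, adjusted 0.00516; n = 24). Without the 2 mice farthest from the median of Eif4ebp1, KO mice 41 and 21, r was 0.543. Without the 4 libraries that stand apart, a setting added after seeing the data, r was 0.411 (permutation p = 0.0719) and rho 0.412 (permutation p = 0.0717; n = 20), so the relation no longer passed without them. In WT mice r was -0.060 (permutation p = 0.776) and rho -0.050 (0.817), and r was 0.058 without the 2 farthest mice. The difference between the genotypes was not tested. These tests are two-sided. The deviations were permuted over all mice of a genotype, not within groups. This takes no account of the group means removed or of unequal spread between groups, so the permutation p values are likely too small.

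Related genes outside the rule were counted from 5 lists, whose background shares are those given above for all genes. None of the 18 measured genes (of 20 listed) of mTORC1 and its regulators was called for the average, 11 were rhythmic in WT and 8 differed in rhythm. Examples are Flcn, which signals amino acids to mTORC1 (amplitude 0.14 in KO and 0.59 in WT, adjusted p of the difference 2.20e-05), Ddit4, an inhibitor induced by stress (amplitude 0.13 in KO and 1.15 in WT, adjusted p of the difference 5.67e-04), and Mtor itself (amplitude 0.14 in KO and 0.32 in WT, adjusted p of the difference 0.00975). Of 14 kinases and proteins that act on cap binding 1 rose, the ribosomal protein gene Rps6 (log2 fold change 0.19, SE 0.045, adjusted p = 0.00570), 9 were rhythmic in WT and 3 differed. Mknk2, a kinase of eIF4E, had an amplitude of 0.28 in KO and 0.41 in WT (adjusted p of the difference 1.08e-04). Its fitted peaks were at ZT1.86 in KO and ZT11.5 in WT. The others were Larp1, which represses mRNAs of ribosomal proteins (amplitude 0.11 in KO and 0.34 in WT, adjusted p of the difference 0.00145), and Pabpc1, the poly(A)-binding protein (amplitude 0.059 in KO and 0.19 in WT, adjusted p of the difference 0.00401). In the integrated stress response list 8 of 12 were rhythmic in WT, 4 differed, and 1 fell: Trib3, a pseudokinase induced by ATF4, had a log2 fold change of -0.94 (SE 0.17, adjusted p = 2.03e-04) and an amplitude of 0.33 in KO and 1.64 in WT, adjusted p of the difference 9.63e-07. Of the kinases of eIF2 alpha, Eif2ak1 had an amplitude of 0.052 in KO and 0.16 in WT, adjusted p of the difference 0.00395, and Eif2ak2 one of 0.053 in KO and 0.33 in WT, adjusted p of the difference 0.00552.

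Of 8 helpers of initiation and recycling none was called for the average, 7 were rhythmic in WT and 4 differed, among them Abce1, which splits ribosomes (amplitude 0.059 in KO and 0.30 in WT, adjusted p of the difference 0.00166), and Dhx29, a helicase for structured leaders (amplitude 0.087 in KO and 0.44 in WT, adjusted p of the difference 0.00347). Among 15 elongation and termination factors 3 rose and 1 fell: Eef1a1, Eef1b2 and Eef1d, which belong to the complex that brings tRNA to the ribosome (log2 fold change 0.21, 0.19 and 0.13; adjusted p 0.00187, 0.00615 and 0.0320), rose, and the mitochondrial Gfm1 fell (log2 fold change -0.14, adjusted p = 0.0419). In that list 9 were rhythmic in WT and 2 differed, Eef2k and Eef2. Eef2k, the kinase of eEF2, had an amplitude of 0.10 in KO and 0.41 in WT (adjusted p of the difference 0.00152). Eef2 had near-equal amplitudes, 0.13 in KO and 0.14 in WT, and fitted peaks at ZT16.5 in KO and ZT7.91 in WT (adjusted p of the difference 0.0343). It was called rhythmic in neither genotype (adjusted p 0.251 in KO and 0.0583 in WT). In each of the 5 lists edgeR called 0 genes rhythmic in KO, with 4, 5, 2, 2 and 5 at an unadjusted p under 0.05 in the order of the lists. The median log2 fold change was -0.019, -0.013, 0.040, 0.058 and 0.0079 in the same order, against 0.0011 over all genes.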

How the data were processed

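Liver mRNA of 48 mice was sequenced after poly-A selection with a TruSeq kit that keeps no strand (13 PCR cycles, 2 libraries per lane), per the labels' protocols. The deposited values are raw read counts per gene. CASAVA, STAR 2.4.0f1 and the mm9 build are named in the submitters' processing notes; the counting tool and gene models are not given in the sources used here. Library totals of 33562272 to 34035644 counts are so alike that the authors may have equalised the depth by a step not described, and the counts were used as deposited. Raw depth before that step is unknown, and the counts set the precision.

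In R 4.3.3, edgeR 4.0.16 (filterByExpr with a minimum count of 10, TMM scaling) kept 14836 of 23732 genes, with 99.975% of the counts. Its quasi-likelihood test was fitted across all genes with 12 group means for KO minus WT (averaged, at each time, and the interaction with 5 df), and with a 24 h cosine in each genotype for rhythms and their difference. P values were adjusted by Benjamini-Hochberg over all genes, and results with an adjusted p under 0.05 are called. The SE of a log2 fold change was its size divided by the square root of F, and amplitude and peak SEs are approximate. CPM used TMM-scaled library sizes, and log2 CPM a prior count of 2. Correlations used 100000 permutations over all mice of a genotype. The script was tested on simulated data. Alternatives were limma 3.58.1, DESeq2 1.42.0, other scalings, no filter, body weight or cage as covariates, single cage sets and left-out libraries.

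Named genes were Arntl, the 3 repressors, up to 10 called members by smallest p for the average, the interaction and each rhythm test, up to 3 at each time, the highest and lowest member of each role, the 2 members and 2 rows nearest the count limit, and up to 4 called genes of each list and test. Any other gene named was chosen after its values were seen. The members and lists were chosen with earlier results of these data known. Each library is 1 mouse with a number of its own. Exon lengths came from GENCODE and covered 53 of 54 members.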

Additional observations from a re-analysis of the deposited data

Results flagged for a closer look

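Among 84 groups of 4 mice (7 genes, 12 groups each), 5 held 1 mouse far from the other 3, and chance gives about 1 in 20. Eif4ebp2 was at 44.07 CPM in KO mouse 21 of ZT12, Eif4ebp3 at 10.05 CPM in KO mouse 15 of ZT8, and Eif2a at 52.38 CPM in KO mouse 5 of ZT4. Eif2a was at 43.32 CPM in WT mouse 40 of ZT20, and Eif1a at 87.43 CPM in WT mouse 48 of ZT0.

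The difference between KO and WT changed with time of day by the edgeR interaction test in these members, given with adjusted p: Eif4b 7.191e-06, Eif2a 0.00109, Eif2c1 0.001726, Eif4ebp3 0.01014, Eif1b 0.01409, Eif4ebp1 0.01565, Eif1 0.01868, Eif4e 0.02225, Eif1a 0.02252 and Eif2d 0.02483. The 24 h rhythm differed between KO and WT by the edgeR cosine fit with these adjusted p: Eif4b 7.61e-06, Eif2a 3.799e-05, Eif4ebp1 0.004847, Eif4a1 0.006726, Eif4ebp3 0.008333, Eif3j 0.008786, Eif2d 0.01056, Eif5 0.01213, Eif4e 0.01799 and Eif2c1 0.02153.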

How the results depend on the processing

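The labels give every mouse its own number, so no fit paired mice by number. Of 19 cages 11 held both genotypes, and cage was used as a random block in limma voom, not as a fixed pairing of cage mates. Counts of called members are given as main value, then alternatives, here without the share of all genes called in each alternative. The 5 members higher on average became 3 with total counts, 3 with no filter, 2 with body weight as a covariate, 1 without the 4 libraries that stand apart and 2 in cage set B; the 0 lower became 2 without the 4 libraries, 6 in set A and 2 in set B. At ZT0, 0 higher became 2 with DESeq2 and 0 lower became 1 with total counts. At ZT4, 0 higher became 1 with total counts, and 1 lower became 0 with total counts, no filter, body weight or limma voom, and 3 without the 4 libraries or with DESeq2. At ZT8, 2 higher became 5 with total counts and 1 with no filter, and 1 lower became 2 with DESeq2 or its size factors and 4 without the 4 libraries. At ZT12, 1 higher became 0 without the 4 libraries. At ZT16, 2 higher became 4 with total counts or without the 4 libraries, and 1 lower became 5 without the 4 libraries and 4 with DESeq2. At ZT20, 0 higher became 1 with DESeq2 size factors, body weight or limma voom, and 3 without the 4 libraries or with DESeq2. The 14 interaction calls became 9 with no filter. With cage set as a term, 42 rhythms in WT became 6 and 17 rhythm differences became 4. The 1 rhythm in KO became 3 with total counts or DESeq2, 2 with limma voom, and 0 with no filter, without the 4 libraries, with time as 6 levels or with cage set as a term. Reversed single genes were Eif1a in set C (-0.018), Eif2b3 in set B (-0.12), Eif4ebp1 in set B (0.057), in set C (0.21), without KO mouse 41 (0.0049) and without KO mouse 24 (0.0019), and Eif4ebp3 in set A (0.073) and set C (0.84), all log2 fold changes. The WT correlation of Eif4ebp1 and Eif4ebp3 was 0.238 with group means left in and 0.058 without the 2 farthest mice. In KO that correlation was 0.411 and no longer passed without the 4 libraries. The cause was not tested.

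Without 1 mouse, the average gave 3 to 6 higher and 0 to 1 lower. By time the counts were 0 to 8 higher and 0 to 1 lower at ZT0, 0 and 0 to 2 at ZT4, 1 to 3 and 0 to 3 at ZT8, 0 to 3 and 0 to 4 at ZT12, 1 to 3 and 0 to 4 at ZT16, and 0 to 1 and 0 at ZT20. The interaction gave 9 to 18, rhythm in WT 38 to 44, rhythm in KO 0 to 9 and the rhythm difference 13 to 23. For these fits too the shares of all genes called are not given here. The average log2 fold change of Eif4ebp1 lay between -0.047 and 0.0049. The correlation r lay between 0.509 and 0.659 in KO and between -0.154 and 0.118 in WT. Depth limits Eif5a2, with a mean of 35.9 counts.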
